A study of Danio rerio with 6 samples.

Results

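The genes described here form the insulin-like growth factor (IGF) axis of the zebrafish: the ligand genes igf1, igf2a and igf2b, the receptor genes igf1ra and igf1rb, and the binding protein genes igfbp1a, igfbp2a, igfbp3, igfbp5a and igfbp5b. They were chosen by name, as ligands, receptors and binding proteins, through the RefSeq accession of each probe on the array. All 10 genes had probes, 23 in all, among 28374 genes on the arrays, and 7 of the 10 were bright enough to be tested among 15775 tested genes. RNA came from caudal fins of wildtype larvae at 10 days post fertilisation, and each RNA pool was made from the fins of 15 fish. The trained group swam from 5 to 10 days post fertilisation in daily sessions of 3 h, and the control group comprised control larvae of the same age, strain and tissue. Each group had 2 pools, named C2 and C3 for control larvae and T2 and T3 for trained larvae. Pool pair 2 (T2 with C2) was hybridised on 4 two-colour Agilent arrays and pool pair 3 (T3 with C3) on 2, in both dye orientations. The labels do not say whether pools of a number share a clutch, tank or day. The p-values of trained against control bear on these pools only, and rest on the spread between the pool pairs, moderated over all genes. Those of pair 3 against pair 2 rest on the spread between hybridisations.

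IGF ligands are secreted peptides that bind the IGF1 receptor, a tyrosine kinase that signals through the PI3K, Akt and mTOR pathway and the Ras and MAP kinase branch to promote growth and survival. IGF binding proteins hold the ligands in the extracellular space, where they can withhold them from the receptor or deliver them to it. In zebrafish, igfbp1a is known as a gene induced by hypoxia and food shortage, and igfbp5a is known from the calcium-transporting ionocytes of the larval skin. Zebrafish carry pairs of many of these genes from a genome duplication, hence the letters a and b.

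With the reported processing, the log2 ratios farthest from 0 across the axis were those of binding protein genes. The means of the 3 ligand genes lay between -0.00 and 0.19. With the authors' processed signals the dim igf1 probe had a mean of 0.54, beside 0.52 for igfbp5b and -0.73 for igfbp1a. In trained relative to control fins igfbp5b had the highest mean log2 ratio of the reported processing, 0.47 ± 0.19 (limma SE, n = 2 pool pairs), and igfbp1a the lowest, -0.63 ± 0.30. The value of igfbp1a came from pair 3, where it was 2.27-fold lower in the trained pool, against 1.05-fold in pair 2. The gene igfbp2a stood at 0.26 ± 0.18, with its larger value in pair 2. None of the 7 tested genes passed the test over all genes, in which 0% of the 15775 genes were called by limma with Benjamini-Hochberg adjustment. The lowest adjusted p among the 7 was 0.751, which was also the lowest of all genes. At an unadjusted p under 0.05 there were 0 of the 7 and 628 of all genes, 342 higher and 286 lower.

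The 7 tested genes had a median log2 ratio of 0.02, with 0.05 in pair 2 and -0.01 in pair 3, beside 0.04, 0.02 and 0.05 over all tested genes. Of the 7, igfbp1a was below 0 in both pool pairs (24.7% of all tested genes were), igf1, igfbp2a and igfbp5b were above 0 in both (36.6%), and igf2a, igf2b and igfbp3 had opposite signs. On all 6 arrays igfbp1a was lower in trained fins, as were 8.37% of all tested genes, and igfbp2a and igfbp5b were higher, as were 11.8%. Ratios of all genes spread more widely in pair 3 (SD 0.53) than in pair 2 (SD 0.15), so that a given log2 ratio was less unusual there.

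**Figure D1:**
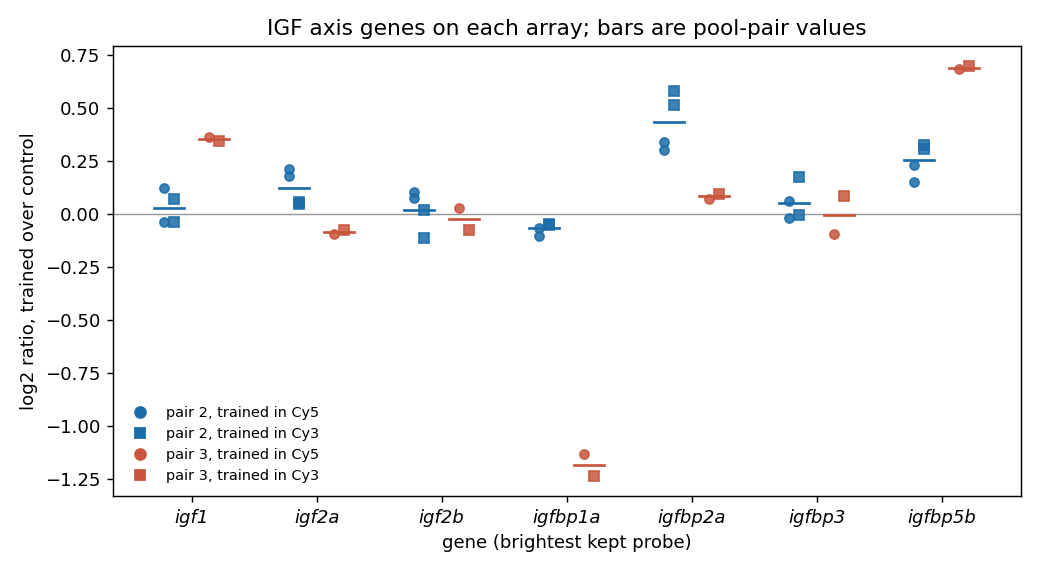
Log2 ratio of trained over control (vertical axis) for the 7 tested IGF axis genes (horizontal axis), with 1 point per array, circles for trained RNA in Cy5, squares for trained RNA in Cy3 and bars for the value of each pool pair. In pair 3 igfbp1a lies at -1.14 and -1.24 while its 4 arrays of pair 2 lie between -0.10 and -0.05, and igfbp5b lies above 0 on all 6 arrays.

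A second test asked whether the ratio differed between the pool pairs by more than the spread between hybridisations. It compared pair 3 with pair 2 over the 6 arrays in limma, with the dye orientation as a covariate. Each pair is 1 pool against 1 pool, so the test bears on these pools and not on training or on the spread between animals. Of the 7 genes, 3 were called lower in pair 3 (igf2a, igfbp1a and igfbp2a), where 29.5% of all tested genes were called lower. A further 2 were called higher (igf1 and igfbp5b), where 34.3% of all tested genes were. The share called among the 7 was thus near that of all genes, and differences between the pairs were common among all genes with the reported processing. With local backgrounds as deposited the count over all genes fell from 10065 to 553, and none of the 7 was called.

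Among the ligand genes, igf1, the ligand that growth hormone induces in many tissues, had log2 ratios of 0.12, 0.07, -0.04 and -0.04 on the arrays of pair 2 and of 0.36 and 0.34 on those of pair 3. Both arrays of pair 3 lay above all 4 arrays of pair 2, which scattered around 0. The mean over the pool pairs was 0.19 ± 0.18 (SE, limma adjusted p = 0.798), and pair 3 exceeded pair 2 by 0.33 ± 0.07 (SE, adjusted p = 0.00186). Read per pool, its log2 normalised intensity was lowest in C3 at 6.49, 6.66 in C2 and 6.69 in T2, and highest in T3 at 6.84. The ranges over channels overlapped between C2 (6.64 to 6.67) and T2 (6.61 to 6.76), while C3 (6.46 to 6.51) and T3 (6.81 to 6.87) lay apart from them and from each other. This probe was dim, and its ratio in pair 3 moved with the background handling, to 0.16 with local backgrounds as deposited, to 0.65 with a normexp offset of 10 and higher still with the authors' processed signals. The other igf1 probe was well above background in 0 of 12 channels, so igf1 rests on a single probe.

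The genes igf2a and igf2b encode IGF2, the ligand known above all for growth before birth or hatching, and each was read by 1 probe. For igf2a the ratios were 0.21, 0.05, 0.18 and 0.05 in pair 2 and -0.10 and -0.08 in pair 3. All 4 arrays of pair 2 lay above 0 and both of pair 3 below it. Its mean was 0.02 ± 0.17 (SE, limma adjusted p = 0.982), and pair 3 lay below pair 2 by a difference of -0.21 ± 0.07 (SE, adjusted p = 0.0184), which was not called without the first array of pair 2 (adjusted p = 0.0622), without the first array of pair 3 (0.232), with no filter on dim probes (0.0532) or with local backgrounds as deposited (0.327). For igf2b the 6 ratios ran from -0.11 to 0.10 with both signs in each pair. Its mean was -0.00 ± 0.17 (SE, limma adjusted p = 0.998), with 0.02 in pair 2 and -0.02 in pair 3, and the pairs differed by -0.04 ± 0.07 (SE, adjusted p = 0.603). With median centring in place of loess that difference was -0.34 (adjusted p = 0.0103). Both pools of pair 3 had lower igf2b levels than both pools of pair 2, at 8.29 in C3 and 8.27 in T3 against 8.49 in C2 and 8.51 in T2 in log2 normalised intensity. Trained and control pools of a pair overlapped in their channels for igf2b, and the levels lay closer within a pair than between pairs. With median centring in place of loess they did not, at 8.46 in C2, 8.53 in T2, 8.41 in C3 and 8.14 in T3.

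The receptor genes gave no usable ratio. The probes of igf1ra were well above background in 3 and 2 of 12 channels, and that of igf1rb in 1 of 12. Their pair values lay between -0.08 and 0.04 on the log2 scale, which says only that most channels did not rise above the background. The binding protein gene igfbp5a was alike, with its 2 probes well above background in 3 and 2 of 12 channels and pair values between -0.08 and 0.08. A difference in these genes was not detectable with these arrays.

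The ionocytes that express igfbp5a are a minority of skin cells. A list of 12 markers of ionocytes, not limited to the type that expresses igfbp5a, was read on the same arrays. Of these, 3 were tested, ca2, atp1b1b and atp6v1aa, and all are pump or enzyme genes that other cells use too. The calcium channel gene trpv6 was well above background in 2 of 12 channels, and the transcription factor genes gcm2, foxi3a and foxi3b in 4, 3 and 0. These channel and transcription factor genes were thus about as dim as igfbp5a. In bulk RNA, fewer cells of a type and less RNA per cell cannot be told apart.

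Among the binding protein genes, igfbp1a showed the widest difference between the pool pairs. Its ratios were -0.07, -0.06, -0.10 and -0.05 on the arrays of pair 2 and -1.14 and -1.24 on those of pair 3. All 6 lay below 0, those of pair 2 close to it. The mean was -0.63 ± 0.30 (SE, limma adjusted p = 0.751), and pair 3 lay below pair 2 by a difference of -1.12 ± 0.07 (SE, adjusted p = 2.62e-08). With local backgrounds as deposited that difference was -0.61 ± 0.18 and was not called (SE, limma adjusted p = 0.124). A ratio as low as that of igfbp1a was found in 0.932% of all tested genes in pair 3 and in 22.9% in pair 2. Both slides of the experiment held arrays of both pairs, and the mean of igfbp1a was -0.60 within slide 1 and -0.67 within slide 2.

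Read per pool, igfbp1a stood out in the control pool of pair 3. Its log2 normalised intensity was 8.64 in C2, 8.57 in T2, 10.18 in C3 and 8.99 in T3. The channels of C2 ran from 8.63 to 8.66, those of T2 from 8.52 to 8.59, and those of C3 from 10.12 to 10.23, and the lower channel of T3 read 8.99 with the other barely above it, with no overlap between any 2 pools. The control pool C3 was 2.91-fold above the control pool C2, and the trained pool T3 was 1.34-fold above T2. The gap between the control pools was thus wider than either gap between trained and control. A gap from C2 to C3 at least as large was seen in 0.254% of all tested genes, whose median was -0.05, and one from T2 to T3 in 10.8%. C3 held the highest igfbp1a level under each of 6 processing settings, with a gap to C2 of 1.37 to 1.76 on the log2 scale. The control pools were on different arrays, and with 1 pool each their difference has no replicate check.

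The other kept probes of igfbp1a showed the same order of pools. The second stood at -0.17 in pair 2 and at -1.51 in pair 3, and the dimmest stood at -0.06 and -1.43. In these probes C3 lay 3.12-fold and 3.05-fold above C2. The low value in pair 3 was thus shared by the 3 probes. The same sign on all 6 arrays was not: each of these other probes lay above 0 on 2 of the 4 arrays of pair 2, at 0.14 and 0.16 for the second and at 0.04 and 0.06 for the dimmest. These signs split by dye orientation. With trained RNA in Cy3 the second probe had -0.51 and -0.47. With trained RNA in Cy5 the dimmest had -0.13 and -0.20. Such a dye difference cancels in the pair value.

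Markers of other tissues and cells were read in the same 4 pools, since igfbp1a is strongly made in the liver. Of 15 markers of liver, gut and pancreas 6 were tested, and their summed normalised intensity was 632 in C2, 647 in T2, 647 in C3 and 694 in T3. Of the 6, fabp2, ela2, serpina1 and ins were well above background in 9, 10, 11 and 11 of 12 channels. The sum thus includes dim genes, which limits what it can show. The liver fatty acid binding protein gene fabp10a stood at 0.04 in pair 2 and -0.05 in pair 3 as log2 ratios. The liver genes fgb, fga and ambp were too dim to be kept, at 3, 2 and 2 of 12 channels well above background. Of 6 red blood cell markers 2 were tested, and their sum was 2321 in C2, 2420 in T2, 4015 in C3 and 877 in T3. Like igfbp1a the sum was highest in C3, but it was lowest in T3, where igfbp1a lay above C2 and T2. That sum followed the embryonic globin gene hbae1.1, at 0.06 in pair 2 and -2.31 in pair 3, whereas the haem synthesis gene alas2 had 0.05 and -0.07. Endothelial markers, 3 of 8 tested, summed to 562 in C2, 454 in T2, 593 in C3 and 344 in T3. The part of liver cells, red blood cells or vessels in the igfbp1a difference was not tested.

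**Figure D2:**
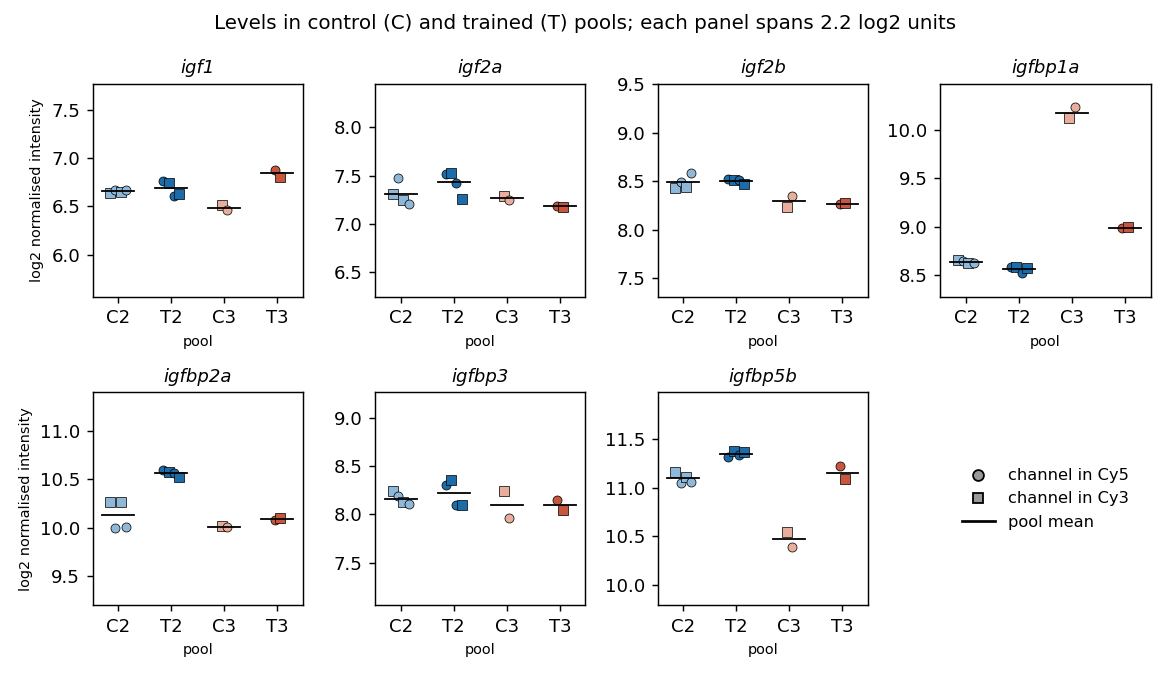
Log2 normalised intensity (vertical axes, each spanning the same width) of the 7 tested IGF axis genes in each control pool (C2, C3) and trained pool (T2, T3), with 1 point per array channel, circles for Cy5, squares for Cy3 and a line for the pool mean. For igfbp1a the control pool C3 lies at 10.18 and the other pools between 8.57 and 8.99, and for igfbp5b C3 is the lowest pool at 10.47.

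The gene igfbp5b, a binding protein gene of the IGFBP5 type, whose mammalian counterpart binds extracellular matrix, had log2 ratios of 0.15, 0.32, 0.23 and 0.31 in pair 2 and 0.68 and 0.69 in pair 3. All 6 lay above 0, with both arrays of pair 3 above all of pair 2. It was 1.19-fold higher in the trained pool of pair 2 and 1.61-fold higher in that of pair 3, and its unadjusted p of 0.0561 was the lowest of the 7 genes (limma adjusted p = 0.751). Within slide 1 its mean was 0.50 and within slide 2 it was 0.46. A ratio as high was found in 4.77% of all tested genes in pair 2 and, in pair 3, where its fold was larger, in 1616 of the 15775 genes. Pair 3 exceeded pair 2 by 0.44 ± 0.07 (SE, adjusted p = 0.000116), but with median centring in place of loess the pair values were 0.30 and 0.27 and their difference was -0.03 (adjusted p = 0.866).

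Its pool levels were 11.10 in C2, 11.35 in T2, 10.47 in C3 and 11.16 in T3, in log2 normalised intensity. The channels of T2 (11.31 to 11.38) lay above those of C2 (11.05 to 11.17), and those of T3 (11.09 to 11.23) above those of C3 (10.39 to 10.54), but T3 overlapped C2. The control pool C3 had the lowest level, 1.55-fold below C2, while T3 was 1.14-fold below T2. A gap from C2 to C3 as far below 0 was found in 7.06% of all tested genes. With median centring in place of loess C3 was still lowest, but its gap to C2 was -0.40 on the log2 scale and that of T3 to T2 was -0.42, so C3 did not then stand apart. The summed levels of the epidermis, fin fold, cartilage, fast muscle and notochord marker lists were also lowest in C3, and the other marker lists were lowest in another pool. Most pathway lists, read in the same bulk RNA, had their lowest sum in C3 too, so a lowest sum in C3 was not limited to these marker lists. The summed normalised intensity of 12 epidermis markers was 291700 in C2, 356200 in T2, 263200 in C3 and 420500 in T3, and that of 12 fin fold and actinotrichia markers 76140, 85410, 69180 and 99730. That of 8 cartilage markers was 62950, 52190, 41130 and 75230 in the same order. Of these 8, the mean log2 ratios of 4 lay above 0 and those of 4 below. In pair 3 they ran from -1.31 for col9a1a to 1.37 for col11a2, with a median of 0.05. The fast muscle list had a median of -0.03 there. Such sums follow the brightest genes and do not stand for each gene of a list. The part of these tissues in the igfbp5b difference was not tested.

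Of the 5 probes of igfbp5b the 3 brightest stood above 0 on all 6 arrays. The second had 0.29 in pair 2 and 0.62 in pair 3, and the third 0.34 and 0.80. The fourth, a much dimmer probe that was kept, had 0.14 and -0.19, and the fifth was not kept, with 0.01 and -0.17. The dimmest probes thus did not follow the bright ones in pair 3. C3 was the lowest pool in the 3 brightest probes. In the fourth it was not: C2 and C3 both stood at 6.88 and T3 was lowest at 6.69.

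For igfbp2a, a binding protein gene of the IGFBP2 type, which in zebrafish is known to restrain growth, the ratios were 0.34, 0.58, 0.30 and 0.51 in pair 2 and 0.07 and 0.09 in pair 3. All 6 lay above 0, and here pair 2 carried the larger values. The mean was 0.26 ± 0.18 (SE, limma adjusted p = 0.765), and pair 3 lay below pair 2 by a difference of -0.35 ± 0.07 (SE, adjusted p = 9.63e-04). In pair 2 the trained pool was 1.35-fold higher, and 0.951% of all tested genes had a ratio as high there, against 46.9% in pair 3. Its level was 10.56 in T2, against 10.13 in C2, 10.01 in C3 and 10.09 in T3. The channels of T2 (10.52 to 10.60) lay above all others, and the channels of the other pools spanned 9.99 to 10.26. Within pair 2 the ratios with trained RNA in Cy3 (0.58 and 0.51) exceeded those with trained RNA in Cy5 (0.34 and 0.30), a dye difference that cancels in the pair value.

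The second igfbp2a probe had 0.37 in pair 2 and -0.13 in pair 3, and the dimmest probe 0.06 and -0.23. The sign in pair 2 held over all 3 kept probes, and the sign in pair 3 did not. The dimmest was well above background in 5 of the 6 trained channels, so it was kept through the control channels alone. The second, well above background in all 12 channels, differed in sign from the brightest in pair 3 without it. With median centring the value in pair 3 was -0.29 in the brightest probe too.

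The gene igfbp3, whose mammalian counterpart carries most IGF in blood, had ratios of 0.06, 0.17, -0.02 and -0.01 in pair 2 and -0.10 and 0.08 in pair 3. Both pairs held values of both signs. The mean was 0.02 ± 0.17 (SE, limma adjusted p = 0.976), and the pairs differed by -0.06 ± 0.08 (SE, adjusted p = 0.521). Its levels of 8.16 in C2, 8.22 in T2, 8.10 in C3 and 8.09 in T3 overlapped in their channels. A second kept probe had 0.07 and 0.15, and the third was well above background in 7 of 12 channels and was not kept. The gene igfbp3 is a direct neighbour of igfbp1a in the RefSeq annotation of assembly GRCz12tu, and igfbp2a is a neighbour of igfbp5a. Neighbouring igfbp1a and igfbp3 therefore had different pool levels in their brightest probes. The mean of C3 was highest for igfbp1a and within the range of the other pool means for igfbp3. In the second kept igfbp3 probe C3 was lowest, at 7.11 against 7.25 to 7.32 in the other pools.

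**Figure D3:**
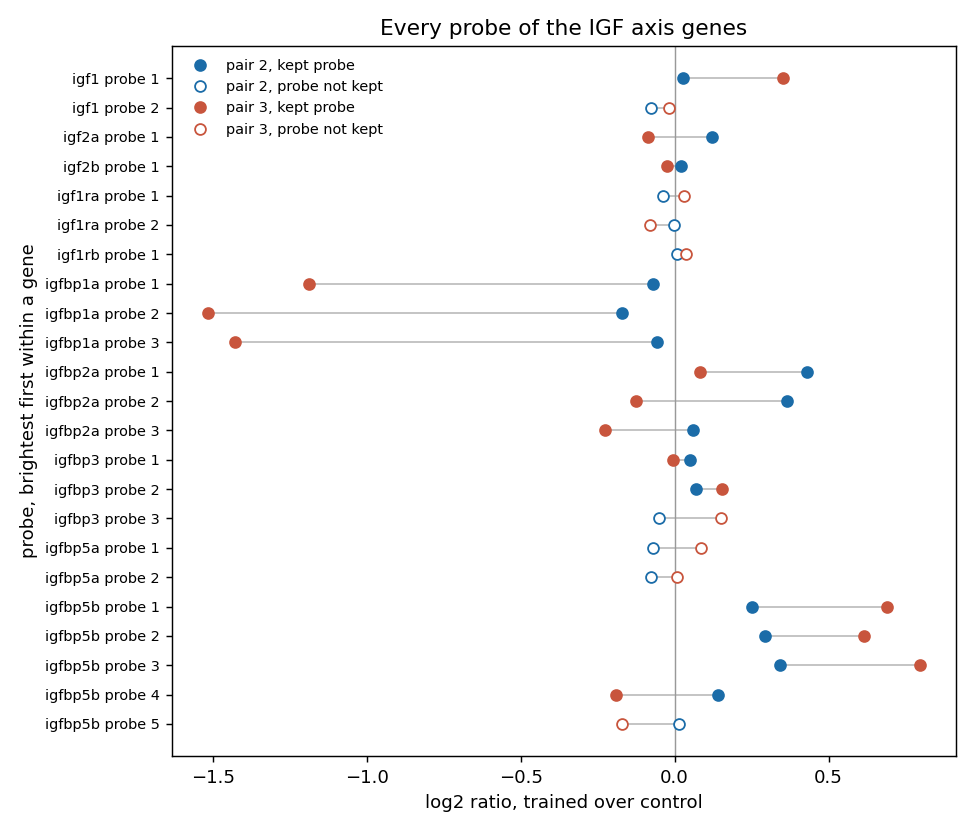
Log2 ratio of trained over control (horizontal axis) in pair 2 and pair 3 for each of the 23 probes of the 10 IGF axis genes (vertical axis, brightest first within a gene), with filled points for the 15 kept probes and open points for those too dim to be kept. The 3 igfbp1a probes lie between -1.51 and -1.19 in pair 3, and the 3 brightest igfbp5b probes lie above 0 in both pairs while the dimmer ones do not in pair 3.

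The remaining genes of the pathway were read from 9 further lists, and 0 of their genes passed when adjusted over all tested genes (limma with Benjamini-Hochberg adjustment). At an unadjusted p under 0.05 the lists held 4 of 79 tested genes (5.06%, against 3.98% of all tested genes), named here with the others that ranked first in each list. The adaptor gene grb10a, whose mammalian counterpart restrains insulin and IGF receptors, stood at 0.43 in pair 2 and 1.15 in pair 3, with a mean log2 ratio of 0.79 ± 0.23 (SE, limma unadjusted p = 0.0175, adjusted p = 0.751). It was higher on all 6 arrays. The other genes of insulin signalling that ranked first were the insulin receptor gene insrb, with 0.16, and the receptor substrate gene irs2a, with 0.10.

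In the PI3K, Akt and mTOR list 25 of 41 genes were tested, 16 above 0 and 9 below, with a median of 0.08, against 0.04 over all genes. The 3 that ranked first by unadjusted p were the sestrin genes sesn1 (0.32 in pair 2, 1.41 in pair 3) and sesn3 (0.28 and 1.02), and the lipid phosphatase gene ptenb (0.32 and 1.85). Each was higher in trained fins on all 6 arrays, with unadjusted limma p-values of 0.0305, 0.0364 and 0.0331. The second brightest probes of sesn1 (0.32 and 0.64) and ptenb (0.13 and 0.92) had smaller values in pair 3. The Ras and MAP kinase list, with 18 of 23 genes tested, had a median of 0.05, at 0.00 in pair 2 and 0.17 in pair 3. Its kinase genes braf and mapk3 and the GTPase gene kras had means of 0.64, 0.63 and 0.52, each resting on pair 3, at 1.17 for braf and 1.19 for mapk3 there, against 0.12, 0.06 and 0.04 for the 3 genes in pair 2. The second brightest probes of braf and mapk3 disagreed, at 0.14 and -0.08 in pair 3. That of kras was close to the brightest, but the mean of all kept kras probes was 0.20 in pair 3 and 0.10 over both pairs.

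Upstream of the ligands, 6 of 12 growth hormone axis genes were tested, with a median of 0.13. The growth hormone receptor gene ghra had 0.04 in pair 2 and 0.83 in pair 3, the kinase gene jak2a 0.29 and 0.01 (second probe -0.08 and -0.11), and the transcription factor gene stat5b -0.01 and 0.29. The genes of the first rank in this list thus each took their value from a single pair. The growth hormone gene gh1, a pituitary gene, was well above background in 2 of 12 channels.

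Outside the cell, 3 of the 9 listed further binding proteins and carriers were tested. The gene igfbp2b, the duplicate of igfbp2a, had 0.22 in pair 2 and 0.35 in pair 3 and was higher in trained fins on all 6 arrays, with a mean of 0.28 ± 0.17 (SE, limma adjusted p = 0.751). Its duplicate igfbp2a had its larger value in the other pair, and its sign in pair 3 did not hold over its kept probes. The related gene igfbp7 had 0.08 and -0.69, and igf3, a ligand gene known from fish gonads, -0.01 and 0.10.

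Binding proteins are cut by proteases of the pappalysin family, which stanniocalcins inhibit, and by HtrA proteases. The stanniocalcin gene stc2a was lower in trained fins on all 6 arrays, at -0.13 in pair 2 and -0.88 in pair 3, with a mean of -0.50 ± 0.23 (SE, limma adjusted p = 0.751). This mean moved with the background handling, to -0.24 with local backgrounds as deposited, -0.92 with a normexp offset of 10 and -1.92 with the authors' processed signals. The gene stc2a was well above background in 10 channels but not in all, so it was kept through the channels of a single group. This limits what the lower value of stc2a in trained fins can show. Its relative stc1 lay the other way, at 0.05 and 0.74, and the protease gene htra1b had 0.13 and 0.66 and was higher on all 6 arrays. Of this list 5 of 10 genes were tested, 2 above 0 and 3 below.

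Downstream, the FoxO transcription factors are held out of the nucleus by Akt. Of 7 genes 2 were tested, foxo3a at 0.04 in pair 2 and 1.26 in pair 3 and foxo3b at -0.08 and 0.77, so that both had their high value in pair 3 alone. Their second probes had 0.52 and 0.72 in pair 3. Among the 4 genes for IGF2 mRNA-binding proteins, all tested, igf2bp2b was lower in trained fins on all 6 arrays, at -0.27 and -0.36. Of the others, igf2bp1 had -0.08 and 1.18, with its second probe at 0.04 in pair 3, and igf2bp2a had 0.06 and 0.55.

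Since igfbp1a is known to respond to hypoxia and glucocorticoids, 16 genes of these signals, both targets and mediators, were read too. Of these, 11 were tested, and the list median was 0.10 for pair 2 and -0.03 for pair 3. The vascular growth factor gene vegfaa had 0.10 and 1.13, the glycolytic regulator gene pfkfb3 0.24 and 0.36, and the glucocorticoid receptor gene nr3c1 0.06 and 0.69. The second probe of nr3c1 had 0.06 in pair 3. Over the 11 genes the values in pair 3 ran from -0.88 for fkbp5 to 1.13 for vegfaa, with both signs, so the genes ranked first do not stand for the list.

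**Figure D4:**
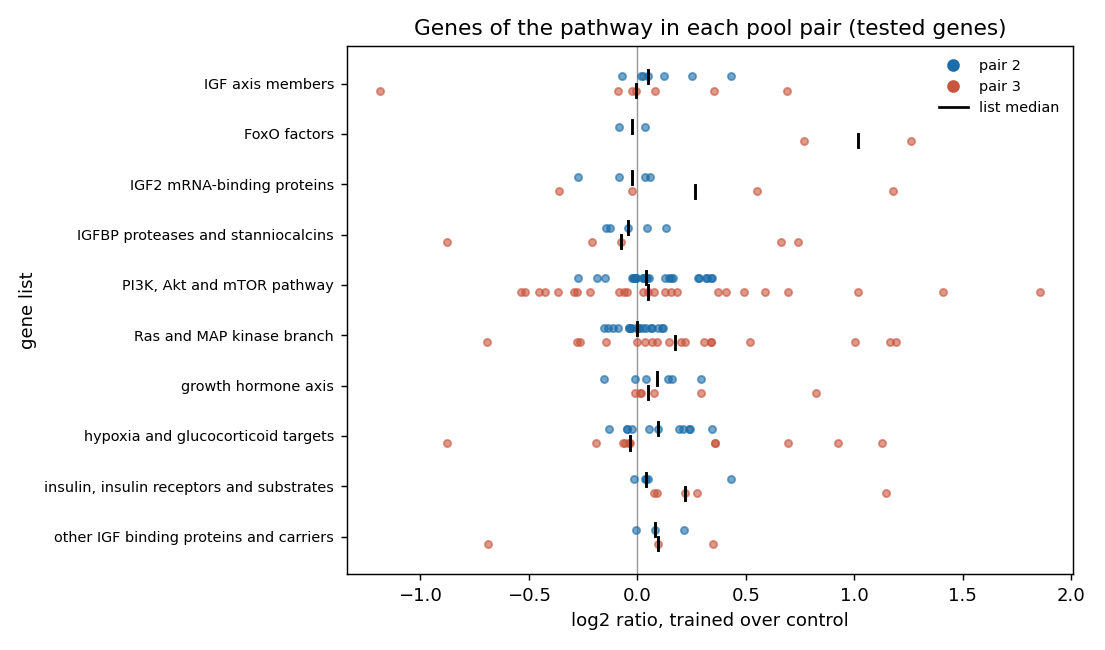
Log2 ratio of trained over control (horizontal axis) of the tested genes in the IGF axis and 9 further gene lists of the pathway (vertical axis), with 1 point per gene and pool pair and a vertical bar for the list median. Values of pair 3 spread more widely than those of pair 2 in the lists, and the IGF axis medians are 0.05 in pair 2 and -0.01 in pair 3.

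For igfbp5b and igfbp1a, which had the smallest unadjusted p of the 7 genes, the genes with the most similar ratios over the 6 arrays were sought among 8720 tested genes with a name. Likeness was the Euclidean distance over the 6 log2 ratios, and the arrays share their 4 pools. Nearest to igfbp5b were the urotensin gene uts2b (distance 0.119), the ubiquitin ligase gene rnf126 (0.125) and the endophilin gene sh3gl3b (0.146). Their ratios lay between 0.20 and 0.27 in pair 2 and between 0.66 and 0.71 in pair 3. Nearest to igfbp1a were the myosin light chain gene myl13 (0.140), the coatomer gene copg2 (0.162) and the asparagine synthetase gene asns (0.191), at -0.13 to -0.03 in pair 2 and -1.25 to -1.13 in pair 3. The search returns the 3 nearest genes whatever their distance, so it does not say how common such a profile is. The match held for the brightest probe: in pair 3 the second probes of uts2b, rnf126 and sh3gl3b had 0.18, 0.29 and 0.02, and those of copg2 and asns -0.55 and -0.08, while that of myl13 had -1.62.

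The arrays and the tissue markers were checked once for all of these values. Across the 12 channels 54.3% to 81.2% of probes were well above background and 0 spots were saturated. Fin fold and actinotrichia markers were tested for 12 of 17 genes and epidermis markers for 12 of 14. Markers of fast muscle were tested for 13 of 13 genes and those of cartilage and of bone for 8 of 10 each. These counts therefore do not tell the labelled tissue from others. The epidermis list had a median of 0.21, and the fin fold list of 0.05. With median centring in place of loess the median of all tested genes was 0.04 in pair 2 and -0.07 in pair 3, against 0.02 and 0.05 with loess, so that values of pair 3 shift lower under it. Relative to that median igfbp5b stayed higher and igfbp1a lower in both pairs. Local backgrounds far from the rest were replaced by the array median on 3 arrays: 74 in green and 51 in red on an array of pair 2, and 18 and 17 on one array and 2 and 4 on the other array of pair 3. Without that replacement igfbp1a was -0.68 and igfbp5b 0.42 in pair 3, and none of the 5 called differences between the pairs passed, with adjusted p from 0.0790 for igfbp2a to 0.532 for igfbp5b.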

How the data were processed

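RNA pools of caudal fins were hybridised on 6 two-colour arrays, and the labels give the dye of each pool. Scans were extracted by the authors in Agilent Feature Extraction (version 10.5.1.1 per the submitters' processing notes). Per the file headers, each deposited file holds raw and processed intensity per spot in both channels, and Cy5 over Cy3 as a log10 ratio. The series' deposited values repeat this log10 ratio, are not turned to trained over control, and served only as an alternative.

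With R 4.3.3, limma 3.58.1 and the data.table package, version 1.17.8, median signals were background-corrected by normexp at an offset of 50, which compresses ratios of dim probes. Local backgrounds over 10 median absolute deviations from the array median were replaced by that median, a step known from earlier results of these data. Arrays were normalised by loess, and flagged spots were left out. Log2 values computed from the deposited intensity were given as trained over control, and averaged over dye orientations and repeats within a pool pair. Pool levels came from separate channels after loess and Aquantile, and one probe's level was not set against another's.

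RefSeq accessions of the 43603 probes were matched without versions to the RefSeq annotation of assembly GRCz12tu, which named 25173 probes with 12900 symbols. Kept probes were those well above background in all 6 control channels or all 6 trained channels, and the brightest kept probe stood for a gene. The 15775 genes were tested with limma against 0 on 2 pair values, two-sided, with Benjamini-Hochberg adjustment at 0.05, 1 residual degree of freedom and a prior of 4.14. The second test used the 6 arrays as hybridisations. Sensitivity alternatives covered background, offset, normalisation, filter, probe choice, slide, replicate unit and pairing. The code was tested on simulated data.

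The genes and lists were chosen with earlier results of these data known. The rule for named genes took every gene of the axis, up to 3 genes of each other list with the smallest unadjusted p, and the 3 nearest genes of the 2 axis genes with the smallest unadjusted p. Pools of one number were treated as pairs because they were hybridised together. Sequences and coordinates were not used here.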

Additional observations from a re-analysis of the deposited data

How the results depend on the processing

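Of the 7 tested IGF axis genes 0 were called trained against control under every alternative run, with adjusted p down to 0.0800 for igfbp5b, 0.0922 for igfbp2a and 0.162 for igfbp1a. These values came from runs on the arrays as units, on single slides or on separate channels. In the runs on pool-pair values over both slides the lowest limma adjusted p was 0.501, 0.605 and 0.515 in the same order. igf1, igfbp1a, igfbp2a and igfbp5b kept their sign under all alternatives. Without the pairing (no replicate block, 4 pools from separate channels) 0 genes were called. Over all genes, 29 were called with pool pairs as a random block, 368 with 6 independent arrays and 5 with the slide as a block, against 0 in the reported test. Those runs took the 6 arrays as units, though the arrays share 4 pools. Their p-values thus rest in part on the spread between hybridisations. Genes called between the pairs fell from 10065 to 553 with local backgrounds as deposited. Values near 0 changed sign, as did some farther from 0. The latter included the igfbp5b difference between the pairs, 0.436 in the reported run. They also included the means of igf2bp1 (0.546), foxo3b (0.343) and igfbp7 (-0.304). The mean of igf2b was 0.0124 with backgrounds as deposited, 3e-04 with offset 10, 0.0033 with scale normalisation, 0.0176 without repeat arrays, 0.005 with independent arrays, 0.0218 within slide 1, and -0.0238 to 0.0193 when a pair was left out. That of igfbp3 was -0.0429 with processed signals and with the deposited table, -0.0645 with median centring, and -0.006 to 0.0516 when a pair was left out. That of igf2a was -0.0363 with median centring, -0.0221 within slide 1, and -0.0874 to 0.122 when a pair was left out. The difference between the pairs was -0.0273 for igfbp5b with median centring, and 0.0144 with the mean of probes and 0.0864 with the second brightest probe for igfbp3, where median centring gave -0.32 (adjusted p = 0.0177). Outside the axis, the second brightest probe gave -0.096 for jak2a and -0.0535 for igf2bp1. When a pair was left out the values ran from -0.689 to 0.0816 for igfbp7, -0.0073 to 0.0962 for igf3, -0.0155 to 0.221 for irs2a, -0.0105 to 0.294 for stat5b, -0.0822 to 0.769 for foxo3b and -0.0847 to 1.18 for igf2bp1. Of 32 genes named outside the axis, the mean moved by over 1.5 times for 24 with backgrounds as deposited, 12 with processed signals, 7 with offset 10, 4 with median centring, 12 with the mean of probes and 15 with the second brightest probe. None of them was called under any alternative run. The alternatives on the second brightest probe, single arrays and pool levels were chosen after seeing the data. Leaving out a pair leaves a value with no test. Signal over background limits igf1 most, and no ratio can be read for igf1ra, igf1rb or igfbp5a.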
